A study of Mus musculus with 12 samples.

Results

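The 39 genes described here carry the breakdown of glucose to lactate and the response of cells to low oxygen: 23 glucose transporters, glycolytic enzymes and lactate-handling genes, and 16 other genes of the hypoxia response. They were chosen by name, as the array probes named for 1 of these genes or for an older symbol of it. Of 41174 probes, 68 matched, for 38 of the 39 genes. No probe matched Gapdh by this rule, so it was not analysed here. Of the 68 probes, 67 passed the filter on dim spots (the second P4ha2 probe was not well above background on any array), and all 38 genes were among the 19708 tested. Messenger RNA of lung tumours labelled KO, in which the conditional Dnmt3a alleles were both to be deleted, was set against that of lung tumours labelled WT at Dnmt3a on each of 12 two-colour Agilent arrays. Dnmt3a encodes an enzyme that adds methyl groups to DNA. All mice, KO and WT alike, were of C57/129 background, carried the K-ras LSL-G12D allele and had received an adenovirus carrying Cre recombinase through the airways, which switches the mutant K-ras on in the lung cells it reaches. No source used here names the promoter that drives Cre, and whole tumour tissue was used, so cells that Cre did not reach are part of both samples.

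By age and sex of the animals the arrays fall into 4 pairs, lettered A to D, with ages in a unit the labels do not state. Pair A (replicates 1 to 4) set a male KO animal of age 47.7 against a male WT animal of 42.6, and pair B (replicates 5 to 8) a male KO animal of 27 against a male WT animal of 41.3. Pair C (replicates 9 and 10) set a male KO animal of 27 against a female WT animal of 47.6, and pair D (replicates 11 and 12) a male KO animal of 29.1 against a male WT animal of 37.3. Pairs A and B had a slide each and pairs C and D shared slide 3, so slide and pair cannot be told apart for A and B. The labels call the 12 arrays biological replicates, but arrays of a pair share their ages and sexes and nothing says whether they came from separate animals. The p-values therefore measure only the spread between these arrays, which may be technical.

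Glycolysis splits glucose into pyruvate, and lactate dehydrogenase then interconverts pyruvate and lactate. When oxygen is scarce, the prolyl hydroxylases that mark the HIF alpha subunits for destruction slow down, HIF accumulates, pairs with Arnt and switches on genes for glucose uptake, glycolysis, lactate export, pH balance, mitophagy and collagen processing. Mutant K-ras also raises glucose uptake and glycolysis in tumour cells, and fast-growing lung tumours often contain poorly oxygenated regions.

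The red dye, Cy5, marked KO RNA on 6 arrays and WT RNA on the other 6. Between 57.6% and 89.6% of probes were well above background per array and group, lowest on slide 3, and 0 spots were saturated. Across genes, which are not independent replicates, log2 ratios of 2 arrays correlated at a mean of 0.298 within pairs and 0.196 between pairs. The brightest Dnmt3a probe read 8.18 to 8.89 (median 8.38) on the log2 scale in KO tumours and 8.25 to 9.30 (median 8.56) in WT tumours. Its log2 KO over WT ratio was -0.21 ± 0.05 (SE, n = 12 arrays, limma adjusted p = 0.0209) and was below 0 on every array. Both other probes were lower too (-0.55 and -0.25), but where the deleted part lies is not given, so these probes are a weak check of the label.

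Of the 38 genes 2, hexokinase 1 (Hk1) and Ankrd37, fell in KO tumours and none rose. That is 5.26% of the 38, beside 7.46% of all 19708 genes changed at a limma adjusted p under 0.05 (3.52% higher and 3.94% lower). Of all calls 47.2% were higher in KO tumours, and 59.5% with local backgrounds used as deposited. The ratios were nevertheless more often below 0 than above it: 28 of 38 were lower in KO tumours (73.7%), beside 52.8% of all genes. At an unadjusted p under 0.05, 11 were lower (28.9%) and 3 higher (7.89%), beside 11.6% and 11.1% of all genes and 22.6% in either direction. The median log2 ratio was -0.17 for the 22 glycolysis genes measured and -0.16 for the 16 other hypoxia genes, beside -0.01 for all genes. For none of the 38 did the KO levels lie wholly apart from the WT levels across the 12 arrays, a count not made over all genes. In RNA from bulk tissue, fewer cells of a type and less RNA per cell cannot be told apart.

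**Figure D1:**
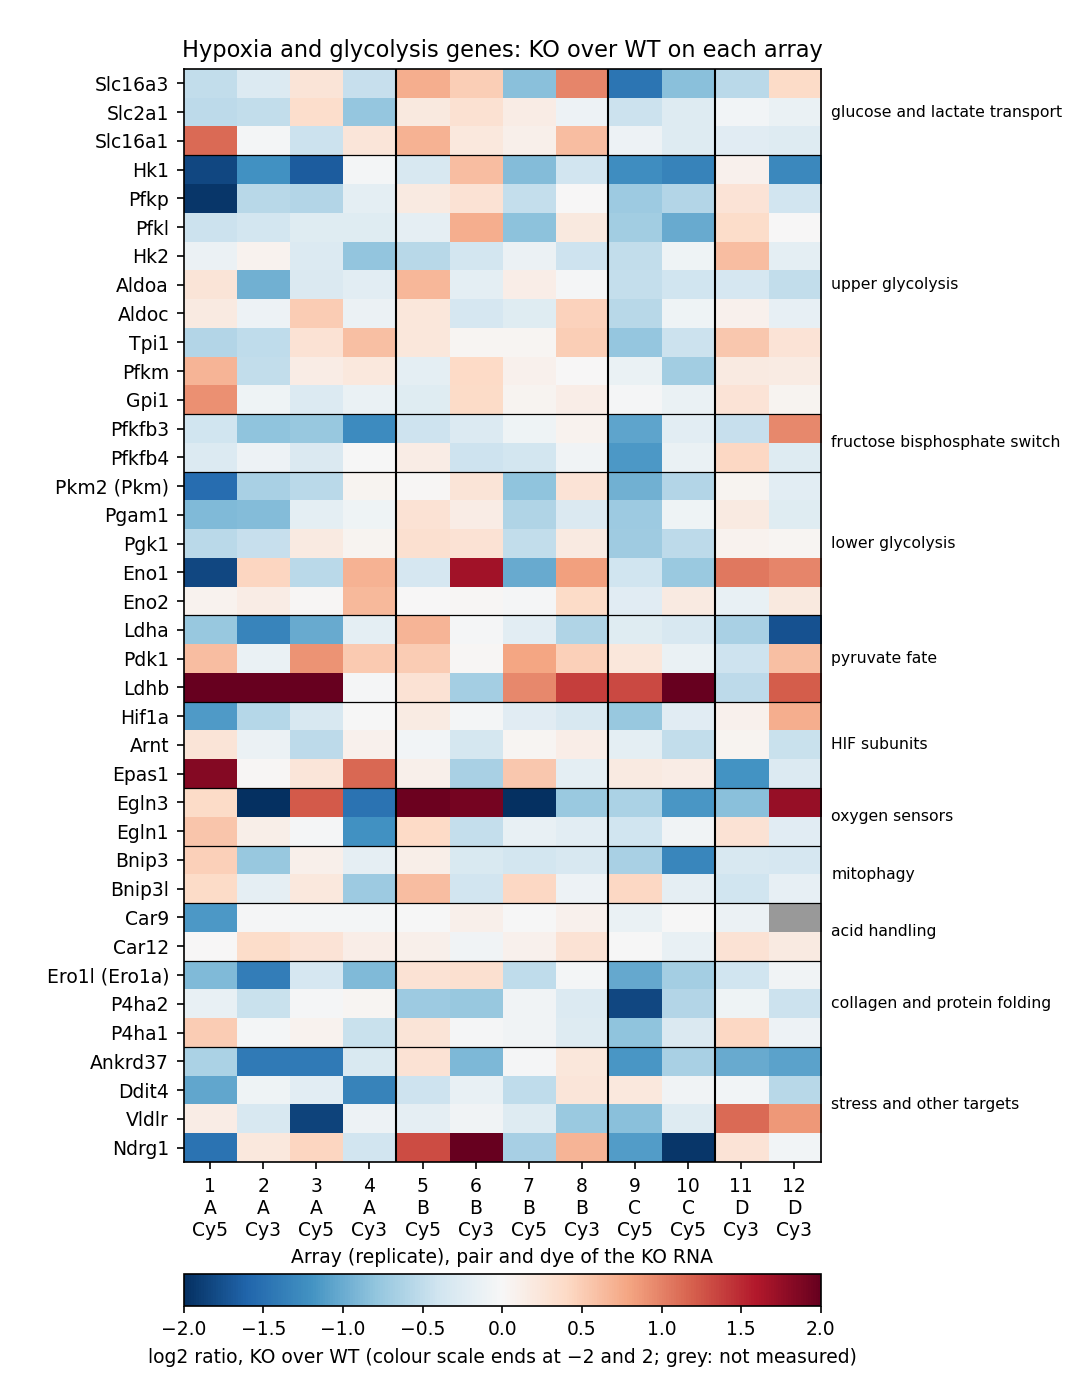
Log2 KO over WT ratio of the 38 genes (rows, grouped by role) on the 12 arrays (columns, with pair and dye of the KO RNA); blue is lower and red higher in KO tumours. Columns 9 and 10 (pair C) are blue in 33 and 35 of 38 genes, column 5 (pair B) in 12, and the Ldhb row is the reddest.

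**Figure D2:**
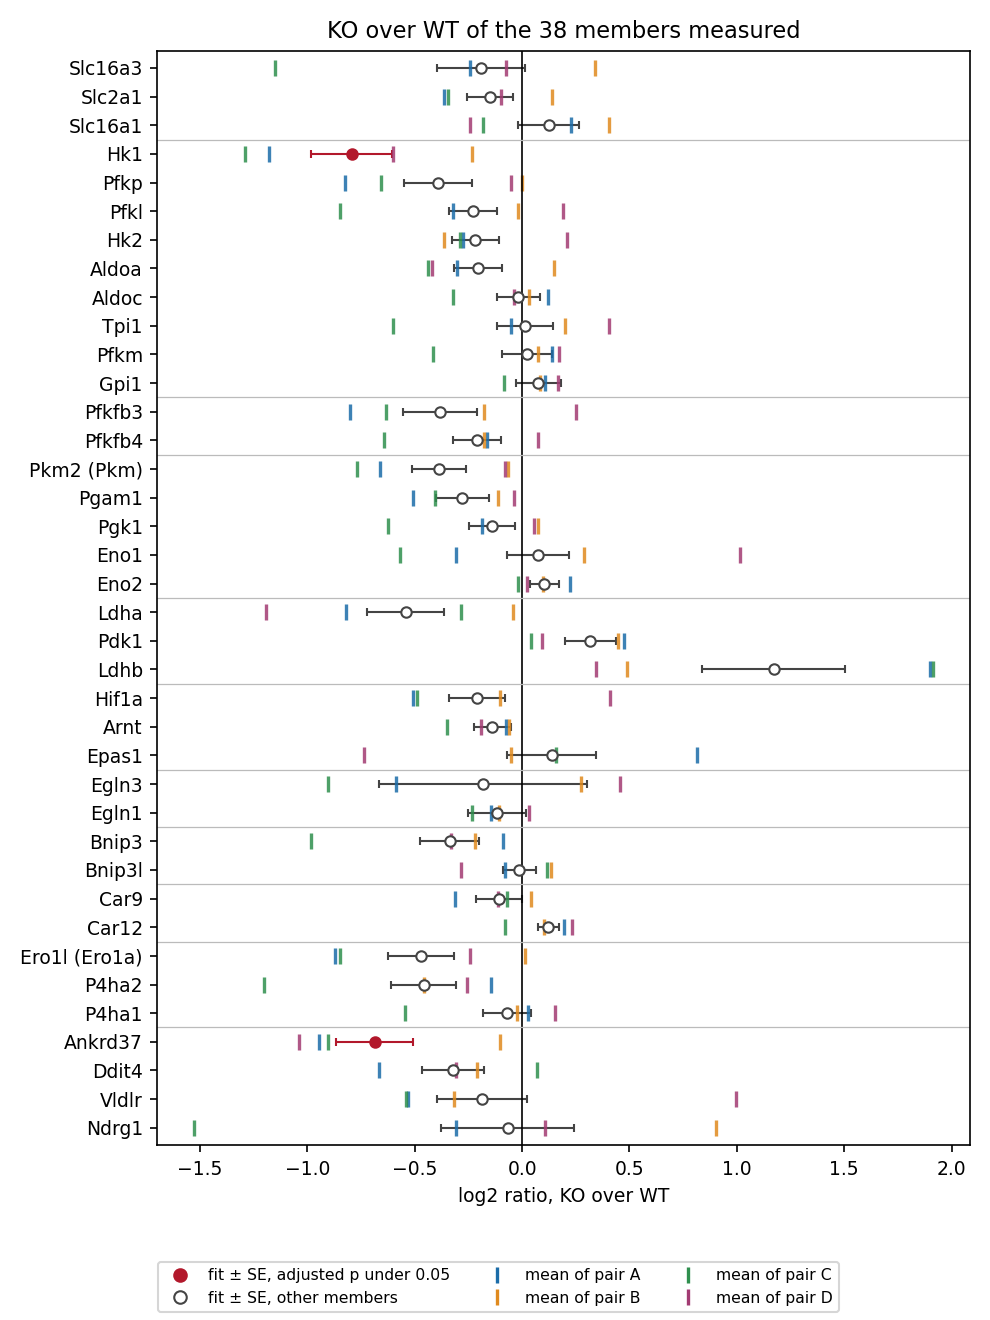
Fitted log2 KO over WT ratio (circles, bars are ± 1 SE, n = 12 arrays) and the mean of each pair (ticks) for the 38 genes, in the same order of roles. Hk1 at -0.79 and Ankrd37 at -0.69, filled, are the 2 genes with an adjusted p under 0.05, and Ldhb at 1.17 has the highest ratio.

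The stretches before the transcription starts of Hk1 and Ankrd37, the 2 genes that fell, and of Ldha and Ldhb, whose ratios differed in sign, are shown with every match in capitals to the core of the element that HIF binds, ACGTG or GCGTG on either strand (CACGT or CACGC as printed). Each is the 250 bases before a start in the RefSeq table of GRCm38.p6, 5′ to 3′ on the gene's strand. Hk1 has 2 starts there, at chr10:62379909-62380158 and chr10:62340422-62340671, both on the minus strand. The Ankrd37 stretch is chr8:45999851-46000100 (minus), the first of 2 for Ldha is chr7:46845554-46845803 (plus) and that of Ldhb is chr6:142507958-142508207 (minus).
Hk1 promoter 1: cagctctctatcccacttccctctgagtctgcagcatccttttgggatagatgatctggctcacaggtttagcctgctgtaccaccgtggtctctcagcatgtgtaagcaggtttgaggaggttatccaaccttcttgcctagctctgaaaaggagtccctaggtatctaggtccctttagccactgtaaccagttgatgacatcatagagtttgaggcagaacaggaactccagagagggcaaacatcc
Hk1 promoter 2: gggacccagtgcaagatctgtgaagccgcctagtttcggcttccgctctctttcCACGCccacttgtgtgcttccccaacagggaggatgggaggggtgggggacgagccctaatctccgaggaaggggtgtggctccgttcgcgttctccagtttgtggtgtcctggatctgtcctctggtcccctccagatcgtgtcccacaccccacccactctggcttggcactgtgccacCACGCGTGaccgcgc
Ankrd37 promoter: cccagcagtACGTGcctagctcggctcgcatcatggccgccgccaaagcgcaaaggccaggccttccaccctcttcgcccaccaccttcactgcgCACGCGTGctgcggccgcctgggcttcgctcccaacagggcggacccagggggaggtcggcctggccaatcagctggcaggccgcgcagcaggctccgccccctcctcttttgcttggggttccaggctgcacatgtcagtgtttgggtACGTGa
Ldha promoter 1: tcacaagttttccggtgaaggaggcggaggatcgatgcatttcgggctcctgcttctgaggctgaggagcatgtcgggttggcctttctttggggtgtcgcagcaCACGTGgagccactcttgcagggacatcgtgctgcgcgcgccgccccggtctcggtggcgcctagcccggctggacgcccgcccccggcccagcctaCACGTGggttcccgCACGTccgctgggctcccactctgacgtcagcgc
Ldhb promoter: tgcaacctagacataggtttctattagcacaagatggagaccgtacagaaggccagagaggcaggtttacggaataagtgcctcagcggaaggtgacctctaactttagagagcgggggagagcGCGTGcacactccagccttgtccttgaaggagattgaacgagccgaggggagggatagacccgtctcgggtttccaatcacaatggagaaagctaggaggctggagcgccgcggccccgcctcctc

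The first Hk1 stretch held 0 matches and the second 3, at 196, 15 and 12 bases before the start, of which the last pair overlap. Ankrd37 had 4 matches, at 241, 155, 152 and 6 bases before the start, of which the middle ones overlap, and Ldha had 5, at 145, 144, 48, 47 and 34 bases, where the palindrome CACGTG counts once on each strand. The second Ldha stretch (chr7:46846832-46847081, not printed) held 1, at 59 bases. Ldhb had 1, at 126 bases. Among the 50 stretches of the 36 genes with an entry (Bnip3l, Epas1 and Ndrg1 had none), 39 held at least 1 match (78%), beside 38.6% of the 32841 stretches in the table. By motif, 48% held ACGTG and 54% GCGTG, beside 16.6% and 28.2%. Both motifs contain CG, and the stretches of these genes were richer in CG dinucleotides (median 14, beside 6 in all stretches). A match is a description of the letters and not a site in use.

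Glucose enters through transporters such as Slc2a1 (Glut1), and lactate passes through Slc16a1 and Slc16a3, with none of the 3 changed. Slc2a1 stood at a log2 ratio of -0.15 ± 0.11, Slc16a3 at -0.19 ± 0.21 and Slc16a1 at 0.12 ± 0.14 (adjusted p = 0.459, 0.651 and 0.675). Slc16a3 was below 0 on both arrays of pair C and above 0 on 3 of the 4 arrays of pair B.

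Hk1 encodes the widely expressed hexokinase that traps glucose in the cell as glucose 6-phosphate. Its brightest probe (chr10:61787906-61787965 on mm7, minus strand, per the file annotation) read 12.16 to 13.47 (median 12.51) on the log2 scale in KO tumours and 12.20 to 14.05 (median 13.59) in WT tumours. The log2 ratio ran from -1.81 to 0.62 over the arrays (median -1.04), and the fit gave -0.79 ± 0.19 (SE, n = 12 arrays, limma adjusted p = 0.0284), a 1.73-fold fall. It was above 0 on replicates 6 and 11 only, and the KO range sat at the lower end of the WT range. Over all probes, of which 5.73% were called, 4 of the 6 Hk1 probes fell, by 0.79, 0.45, 0.44 and 0.46 on the log2 scale. Both others, the dimmest, stood at -0.09 and -0.08 (limma adjusted p = 0.115 and 0.359). By pair the mean ratio was -1.18 in A, -0.24 in B, -1.29 in C and -0.60 in D. The call ended when replicate 1, 2, 3, 8, 9 or 12 was left out (ratios -0.75, -0.72, -0.76, -0.78, -0.79 and -0.69, adjusted p = 0.0511 to 0.0613), and without slide 3 (-0.71, adjusted p = 0.133).

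The other hexokinase measured, the insulin-responsive and HIF-induced Hk2, stood at -0.22 ± 0.11 (adjusted p = 0.273) and was above 0 on 2 of 12 arrays. Phosphofructokinase commits sugar to glycolysis, and its platelet-type subunit Pfkp read 8.70 to 9.84 (median 9.36) in KO tumours and 9.08 to 11.16 (median 9.70) in WT tumours. The Pfkp ratio ran from -1.95 to 0.29 (median -0.42), with a fit of -0.39 ± 0.16 (adjusted p = 0.159). Replicate 1 was far below the others for this gene, and both dimmer Pfkp probes lay nearer to 0 (-0.05 and -0.14). The liver-type subunit Pfkl stood at -0.23 ± 0.11 and the muscle-type subunit Pfkm at 0.02 ± 0.12, neither of them changed. Gpi1, which turns glucose 6-phosphate into fructose 6-phosphate, stood at 0.07 ± 0.11 with a second probe at -0.04. The aldolases Aldoa and Aldoc, which split the sugar into its smaller pieces, stood at -0.20 ± 0.11 and -0.02 ± 0.10, and the isomerase Tpi1 at 0.01 ± 0.13. The second Aldoc probe gave -0.37 (adjusted p = 0.229 over all probes).

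Pfkfb3 and Pfkfb4 make and break down the sugar bisphosphate that activates phosphofructokinase, and neither changed. Pfkfb3 stood at -0.38 ± 0.17 (adjusted p = 0.213), with its 2 dimmer probes at -0.04 and -0.03. Pfkfb4 stood at -0.21 ± 0.11 (adjusted p = 0.289), and each was above 0 on 2 of 12 arrays.

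In the lower part of the pathway no gene passed the threshold. Pkm2 (now Pkm), the pyruvate kinase that makes pyruvate, read 12.70 to 13.48 (median 12.96) in KO tumours and 12.78 to 14.44 (median 13.35) in WT tumours. Its ratio ran from -1.52 to 0.27 (median -0.37), with a fit of -0.39 ± 0.13 (limma adjusted p = 0.0884), and its second probe gave -0.36. Replicates 1, 7 and 9 were lowest, and 5 arrays lay above 0. Pgam1, the phosphoglycerate mutase, read 14.14 to 14.85 (median 14.43) in KO tumours and 14.15 to 15.72 (median 14.78) in WT tumours. The Pgam1 ratio ran from -0.88 to 0.29 (median -0.22), with a fit of -0.28 ± 0.12 (adjusted p = 0.204). Pgk1, the phosphoglycerate kinase, stood at -0.14 ± 0.11 and the neuronal enolase Eno2 at 0.10 ± 0.07. Eno2 was well above background on 8 arrays for KO RNA and 9 for WT RNA.

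The enolase Eno1 followed the dye and not the genotype. Its ratio ran from -1.81 to -0.34 on the 6 arrays with KO RNA in Cy5, and from 0.42 to 1.68 on the 6 arrays with KO RNA in Cy3. These ranges do not overlap, which held for 1 of the 38 genes and was not counted over all genes. The fit with a dye term gave 0.07 ± 0.14 (adjusted p = 0.819), and in pairs C and D, which have 1 dye orientation each, dye and KO over WT cannot be told apart. The accession of its probe also belongs to the near-identical copy Eno1b, so the 2 are not separated.

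Lactate dehydrogenase showed opposite signs in its 2 subunit genes. Ldha, whose subunit favours making lactate and which HIF induces, read 15.60 to 16.88 (median 16.31) in KO tumours and 15.87 to 17.59 (median 16.78) in WT tumours. The Ldha ratio ran from -1.74 to 0.68 (median -0.46), with a fit of -0.54 ± 0.18 (SE, n = 12 arrays, limma adjusted p = 0.0896) that missed the threshold. It was above 0 on replicate 5 alone. Leaving out that array lowered the ratio by construction (-0.63, limma adjusted p = 0.0339). Of the fits with 1 array left out, this 1 alone called Ldha. The second, dimmer Ldha probe gave -0.59 ± 0.13 (limma adjusted p = 0.0267 over all probes).

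Ldhb, whose subunit favours turning lactate back into pyruvate, had the highest ratio of the 38 genes. It read 13.62 to 15.31 (median 14.59) in KO tumours and 12.19 to 14.59 (median 13.30) in WT tumours. Its ratio ran from -0.68 to 3.12 (median 1.26), with a fit of 1.17 ± 0.33 (SE, n = 12 arrays, limma adjusted p = 0.0534), 2.25-fold. Replicates 4, 6 and 11 lay below 0 and the other 9 above it, with pair means of 1.90 in A, 0.49 in B, 1.91 in C and 0.34 in D. It passed the threshold without replicate 5 (1.30, adjusted p = 0.0301), 6 (1.29, adjusted p = 0.0461) or 11 (1.30, adjusted p = 0.0416), and with the arrays taken as independent (adjusted p = 0.0310). Ldhb minus Ldha, as a difference of log2 ratios within an array, ran from -0.66 to 4.13 (median 1.77) and was above 0 on 10 of 12 arrays. That the 2 genes moved apart was not tested.

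Pdk1, the kinase that shuts pyruvate out of the citrate cycle and is itself a HIF target, read 10.06 to 11.20 (median 10.55) in KO tumours and 9.78 to 10.74 (median 10.22) in WT tumours. Its ratio ran from -0.41 to 0.90 (median 0.49), with a fit of 0.32 ± 0.12 (adjusted p = 0.130). Its probes disagreed: the second, nearly as bright, gave -0.05 (adjusted p = 0.882 over all probes). In pairs A and B alone, without slide 3, the first probe passed the threshold (0.46, limma adjusted p = 0.0302). That fit, added after seeing the data, was 1 of 36 alternatives, and the others gave no call.

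**Figure D3:**
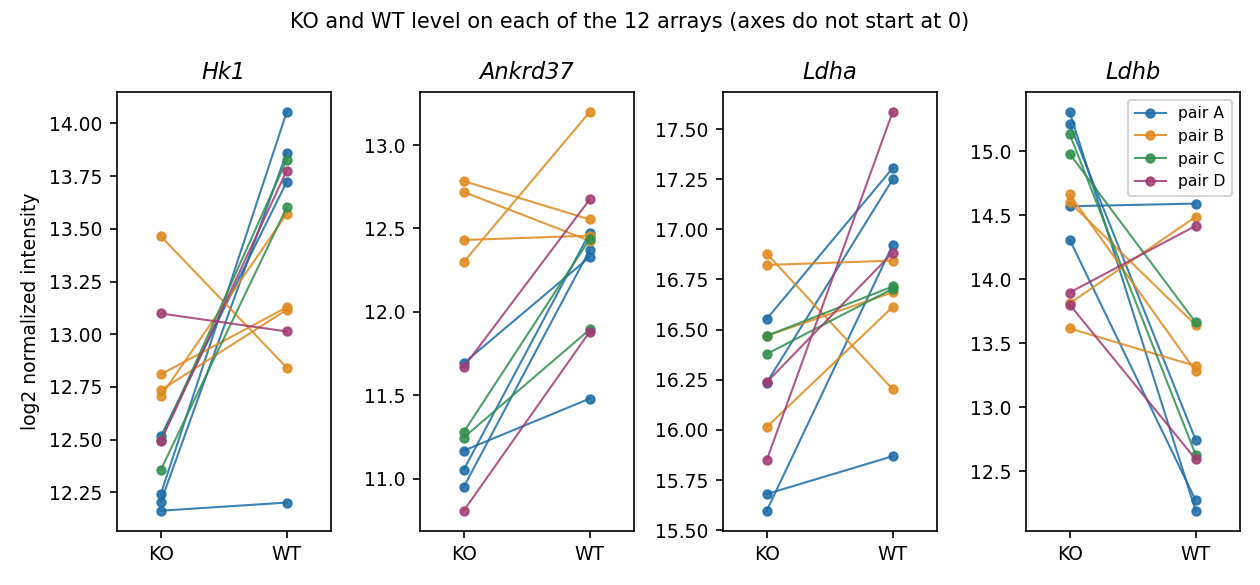
Log2 normalized intensity of Hk1, Ankrd37, Ldha and Ldhb in the KO and WT RNA of each array, joined by a line and coloured by pair. KO is the lower end of the line on 10 of 12 arrays for Hk1 and for Ankrd37, and the higher end on 9 of 12 for Ldhb.

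**Figure D4:**
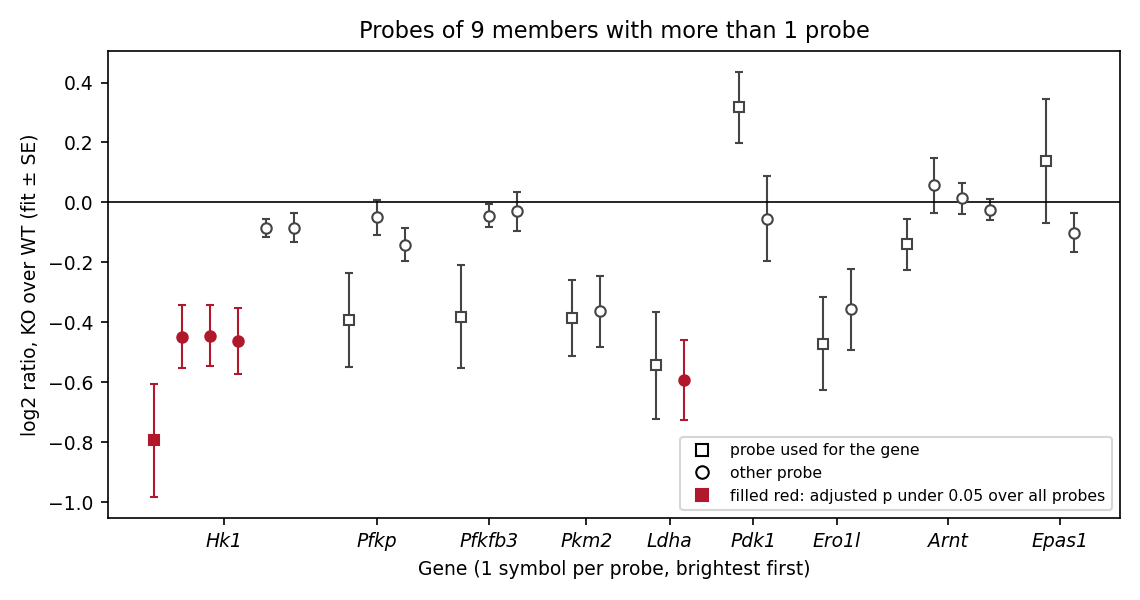
Fitted log2 KO over WT ratio (± 1 SE, n = 12 arrays) of every kept probe of 9 genes with several probes, brightest first; squares mark the probe used for the gene and red fill an adjusted p under 0.05 over all probes. Of the 6 Hk1 probes 4 are red and lie between -0.79 and -0.44, and the 2 Pdk1 probes lie on either side of 0.

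The HIF subunit genes showed no called difference. Hif1a, the oxygen-labile alpha subunit, read 10.72 to 12.18 (median 11.36) in KO tumours and 10.80 to 12.33 (median 11.57) in WT tumours. The Hif1a ratio ran from -1.14 to 0.73 (median -0.23), with a fit of -0.21 ± 0.13 (adjusted p = 0.386), 3 arrays being above 0. HIF1A is controlled mainly through protein stability, which these arrays do not measure. Epas1, which encodes the HIF-2 alpha subunit and is prominent in lung endothelium, read 7.76 to 9.91 (median 8.46) in KO tumours and 7.92 to 9.68 (median 8.37) in WT tumours. The Epas1 ratio ran from -1.20 to 1.84 (median 0.12), with a fit of 0.14 ± 0.21 (adjusted p = 0.763), a pair A mean of 0.81 and a pair D mean of -0.74. Its second probe, dimmer, gave -0.10. Arnt, the shared partner of both alpha subunits, read 9.99 to 11.71 (median 11.00) in KO tumours and 10.45 to 11.60 (median 11.18) in WT tumours. The Arnt ratio ran from -0.53 to 0.27 (median -0.09), with a fit of -0.14 ± 0.09 (adjusted p = 0.377), and its 3 other probes lay between -0.02 and 0.06.

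The prolyl hydroxylases that sense oxygen, Egln1 and Egln3, stood at -0.12 ± 0.13 and -0.18 ± 0.49 and neither changed. Egln3 had the largest SE of the 38 genes: its ratio ran from -2.47 to 1.95 over the arrays, and arrays of pair A and of pair B each lay on both sides of 0. The second Egln1 probe gave 0.01.

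Bnip3, which brings mitochondria to autophagy, read 12.90 to 14.18 (median 13.46) in KO tumours and 13.25 to 14.48 (median 13.64) in WT tumours. Its ratio ran from -1.31 to 0.48 (median -0.32), with a fit of -0.34 ± 0.14 (adjusted p = 0.169), and was above 0 on replicates 1, 3 and 5. Its relative Bnip3l stood at -0.01 ± 0.08. The carbonic anhydrases Car9 and Car12 help tumour cells to keep their pH. Car12 read 6.90 to 7.77 (median 7.41) in KO tumours and 6.62 to 7.66 (median 7.28) in WT tumours. The Car12 ratio ran from -0.15 to 0.36 (median 0.12), with a fit of 0.12 ± 0.05 (adjusted p = 0.162) at a signal near background, where it was well above it on 11 arrays for each RNA. Car9 stood at -0.11 ± 0.11 over 11 arrays, since its spot on replicate 12 was left out as an outlier.

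Among the genes of collagen and protein folding, P4ha2, a prolyl hydroxylase of collagen, read 12.32 to 13.35 (median 12.67) in KO tumours and 12.29 to 14.38 (median 13.10) in WT tumours. Its ratio ran from -1.82 to 0.03 (median -0.35), with a fit of -0.46 ± 0.15 (adjusted p = 0.0921), and replicate 4 alone lay above 0. Ero1l (now Ero1a), the oxidase that forms disulfide bonds in the endoplasmic reticulum, read 8.47 to 9.84 (median 9.03) in KO tumours and 8.83 to 10.73 (median 9.39) in WT tumours. The Ero1l ratio ran from -1.38 to 0.32 (median -0.46), with a fit of -0.47 ± 0.16 (limma adjusted p = 0.0896), and its second probe gave -0.36. Its mean was -0.87 in pair A, 0.01 in B, -0.85 in C and -0.24 in D. Without pair B, the only pair above 0, it passed the threshold (-0.71, limma adjusted p = 0.0428). It did not pass without pair A, C or D. The related hydroxylase P4ha1 stood at -0.07 ± 0.11.

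Ankrd37, an ankyrin-repeat protein gene that HIF induces, was the other gene that fell. Its probe (chr8:44774913-44774972 on mm7, minus strand) read 10.81 to 12.78 (median 11.47) in KO tumours and 11.48 to 13.20 (median 12.43) in WT tumours. The Ankrd37 ratio ran from -1.42 to 0.29 (median -0.77), and the fit gave -0.69 ± 0.18 (SE, n = 12 arrays, limma adjusted p = 0.0393), a 1.61-fold fall. Replicates 5 and 8, both of pair B, lay above 0, and the pair means were -0.95 in A, -0.10 in B, -0.90 in C and -1.04 in D. The call ended without replicate 1, 2, 3, 6, 9, 10, 11 or 12 (ratios -0.70, -0.63, -0.61, -0.66, -0.63, -0.68, -0.66 and -0.66, adjusted p = 0.0588 to 0.0845), and without slide 3 (-0.52, adjusted p = 0.249). The stress genes Ddit4, an inhibitor of mTOR signalling, and Ndrg1 stood at -0.32 ± 0.15 (adjusted p = 0.214) and -0.07 ± 0.31 (adjusted p = 0.930). The lipoprotein receptor Vldlr stood at -0.19 ± 0.21, with a second probe at 0.05.

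Across the 23 genes not given in full above, log2 ratios lay between -0.38 and 0.12, with 17 below 0 and 6 above, and adjusted p between 0.213 and 0.970.

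The 4 pairs did not share the direction equally. Of the 38 genes, pair A had 28 that were lower in KO tumours, B had 18, C had 33 and D had 19. By pair, the median log2 ratio of the glycolysis genes was -0.26 in A, 0.07 in B, -0.43 in C and 0.04 in D, beside medians of all genes between -0.03 and 0.01. For the other hypoxia genes it was -0.23 in A, -0.05 in B, -0.51 in C and -0.15 in D. Lower in both A and C were 26 genes (68.4%), beside 32.8% of all genes, and lower in all 4 pairs were 8 (21.1%), beside 13.1%. Joining A and C was not planned, and they are the pairs with the most of the 38 genes below 0. The 68.4% is therefore raised by that choice and is no separate support for a shared direction. No gene of the 38 differed between pairs in the limma F test (lowest adjusted p = 0.322, 4 at an unadjusted p under 0.05), while 0.326% of all genes did and 12.1% had an unadjusted p under 0.05. Age moves with pair: the KO animal was older than the WT animal in pair A and younger in B, C and D. Pair C alone set a male against a female animal. Pair values are plain means over arrays, and KO RNA was always in Cy5 in pair C and always in Cy3 in pair D. Between arrays with KO RNA in Cy5 and those with it in Cy3, the mean ratio changed sign for 13 of the 38 genes. How many of all genes did so was not counted. The parts of age and sex in these ratios were not tested, and in pairs C and D dye and pair cannot be told apart. Without slide 3, whose arrays were the dimmest, 24 of 38 genes were lower.

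Lists of genes of the same pathways outside the 39 held few calls each, and their shares were not tested against that of all genes. Of 32 further glycolysis, glycogen and pentose phosphate genes 1 fell (3.13% called, beside 7.46% of all genes), the insulin-responsive glucose transporter Slc2a4 (-0.46 ± 0.11, adjusted p = 0.0251), which was below 0 on 12 of 12 arrays. Its call ended without replicate 12 (-0.45, adjusted p = 0.0557). Their median was -0.04, with 4 higher and 5 lower at an unadjusted p under 0.05. The pentose phosphate enzymes Taldo1 (-0.42 ± 0.12, adjusted p = 0.0524) and Pgd (-0.35 ± 0.11, adjusted p = 0.0701) and the glycogen branching enzyme Gbe1 (-0.31 ± 0.11, adjusted p = 0.109) missed the threshold.

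Among 29 genes of pyruvate entry and the citrate cycle 3 rose and 1 fell, at a median of 0.12. That is 13.8% called, beside 7.46% of all genes. Pdha1, the alpha subunit of pyruvate dehydrogenase that Pdk1 inhibits, rose by 0.52 ± 0.09 on the log2 scale (adjusted p = 0.00497) and was above 0 on 12 of 12 arrays. The isocitrate dehydrogenase subunits Idh3g (0.51 ± 0.07, adjusted p = 0.00249) and Idh3b (0.35 ± 0.09, adjusted p = 0.0376) rose in the fit of all 12 arrays. Of the fits with 1 array left out, only those without replicate 2, 5 or 11 called Idh3b. Pcx, which turns pyruvate into oxaloacetate, fell by 0.80 ± 0.15 (adjusted p = 0.0116) and was below 0 on 12 of 12 arrays. Of 24 respiratory chain subunits 0 changed in limma, beside 7.46% of all genes. At an unadjusted limma p under 0.05, 5 were higher and 1 lower. Those of smallest p were Atp5c1, Uqcrc2, Uqcrfs1 and Ndufa9 (0.26, 0.20, 0.24 and 0.23, adjusted p = 0.0765 to 0.135).

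Of 21 further genes of oxygen sensing and HIF regulation 0 changed in limma, beside 7.46% of all genes. At an unadjusted limma p under 0.05, 1 was higher and 2 lower. Egln2, another HIF prolyl hydroxylase, came nearest (-0.23 ± 0.07, adjusted p = 0.0618), ahead of the coactivator Crebbp (-0.25, adjusted p = 0.171), the ubiquitin ligase scaffold Cul2 (0.19, adjusted p = 0.194) and Arntl (-0.46, adjusted p = 0.230). Of 45 further hypoxia targets 5 fell and 1 rose, at a median of -0.11. That is 13.3% called, beside 7.46% of all genes, 3.94% being lower. The vasoactive peptides adrenomedullin (Adm, -0.45 ± 0.10, adjusted p = 0.0216) and endothelin 1 (Edn1, -0.76 ± 0.13, adjusted p = 0.00630) fell, as did the collagen cross-linking oxidase Lox (-0.55 ± 0.13, adjusted p = 0.0252). The Lox call ended without replicate 3 (-0.54) or 12 (-0.53). Tmem45a (-0.53) and the chemokine Cxcl12 (-1.21) fell too. Of the fits with 1 array left out, only those without replicate 5 or 8 called these genes. Plod2, the lysyl hydroxylase of collagen, rose (0.44 ± 0.11, adjusted p = 0.0377). With 1 array left out, the Plod2 call held only without replicate 4, 5, 6, 10 or 11.

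**Figure D5:**
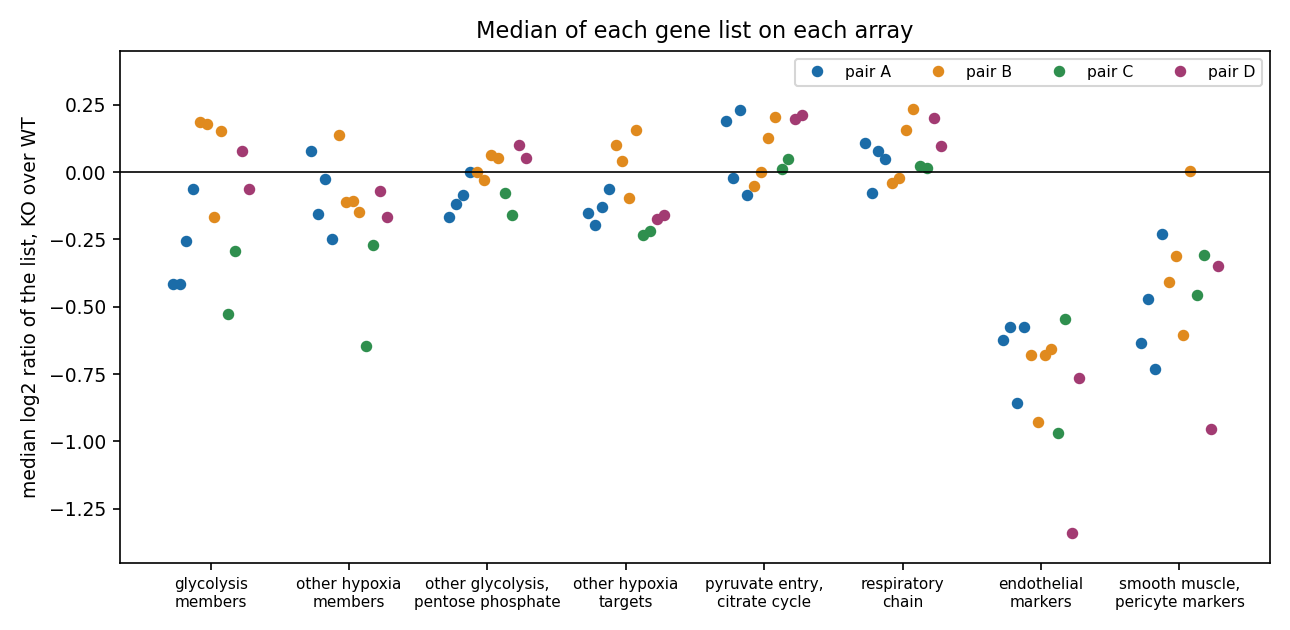
Median log2 KO over WT ratio of 8 gene lists on each of the 12 arrays, coloured by pair. The glycolysis medians lie on both sides of 0 (from -0.53 to 0.19), and the endothelial medians are below 0 on all 12 arrays (from -1.34 to -0.55).

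The 8 alveolar type 2 markers, the cell type from which such tumours commonly arise, were all above background, with summed intensities of 365167 to 1175700 in KO tumours and 481379 to 1241040 in WT tumours (median log2 ratio -0.12, 1 fell). Markers of vessel cells were lower in KO tumours on the same arrays. Of 20 endothelial markers 19 fell and 0 rose (Esam, at -0.32 with an adjusted p of 0.115, was not called), at a median of -0.75. Among them were Pecam1 (-0.65 ± 0.06) and Cdh5 (-0.83 ± 0.08). Their summed intensity ran from 39266 to 56001 in KO tumours and from 62642 to 112910 in WT tumours, which do not overlap. By pair the endothelial median was -0.64 in A, -0.62 in B, -0.75 in C and -1.02 in D. Of 10 smooth muscle and pericyte markers 6 fell, including Pdgfrb (-0.88 ± 0.10) and Mcam (-0.73 ± 0.09), with summed intensities of 25436 to 33585 in KO tumours and 32515 to 52509 in WT tumours, ranges that overlap. All 20 and all 10 passed the filter on dim spots. Whether vessel content has a part in the ratios of Hk1, Ankrd37 or the other hypoxia genes was not tested.

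Among red cell markers, Hba-a1 fell (-1.49 ± 0.34, adjusted p = 0.0258, median of the 4 measured -0.55) and Alas2 stood at -1.02 (adjusted p = 0.0520). By pair the red cell median was -1.18 in A, 0.09 in B, -0.68 in C and -0.50 in D. In the limma F test 2 of the 4 red cell markers differed between pairs at an adjusted p under 0.05, beside 0.326% of all genes. Whether red cell content has a part in the ratios of the glycolysis genes was not tested. The Hba-a1 call ended without replicate 3 (-1.42) or 9 (-1.41). Of 7 fibroblast markers Postn fell (-0.81 ± 0.18) and Lum rose (1.13 ± 0.30), at a median of -0.37. With 1 array left out, the Lum call held only without replicate 2, 5, 8 or 11. None of the 4 ciliated cell markers measured was called (median -0.40; Dynlrb2 -0.76, Tppp3 -0.38; 0 higher and 1 lower at an unadjusted p under 0.05 in limma). Over the arrays their median ran from -3.94 on replicate 11 to 1.55 on replicate 12, both of pair D. The 10 cycling cell markers had a median of 0.28 with 0 called and 3 higher at an unadjusted p under 0.05 in limma. Summed intensities of these 4 lists overlapped between KO and WT tumours.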

How the data were processed

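Each of 12 arrays held RNA of a KO and a WT tumour in opposite dyes, taken from the labels. The authors deposited scanner intensity values per spot and dye with 0 or 1 flags for background, saturation and outliers, made with Feature Extraction 10.1.1.1 (protocol GE2-v5_10_Apr08, probe positions on build mm7), per the file headers. The authors also deposited a table of log2 ratios, for which the submitters' processing notes name limma; its direction and scale were found by setting it against the scanner values (correlation per array 0.998 or above), its column medians lay between -0.011 and 0.0078, and no source used here says whether it was centred. It served as an alternative.

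Mean intensities were background-corrected with normexp (offset 50, local backgrounds marked as outliers replaced by the median of the array and dye) and normalized by loess within each array, leaving out control and outlier spots. Spots of a probe were averaged, and 35531 of 41174 probes, with KO or WT RNA well above background on 6 or more arrays, were kept. Genes were named by accession for 22951 probes and by the name in the file for 11779, while 6444 stayed unnamed. The kept probe of highest mean signal stood for each of 19708 genes. Every ratio was turned to KO over WT. R 4.3.3 with limma 3.58.1 and statmod 1.5.0 fitted an intercept and a dye term with pair as a random block (correlation 0.0772), and p-values were adjusted by Benjamini-Hochberg over all genes, or over all kept probes for single probes. A second limma model gave each pair its own coefficient, with an F test over their differences and no block, for 19614 genes. KO and WT levels are log2 intensities after loess and Aquantile normalization, on a scale that does not compare genes with each other. The fit was tested on simulated data. The number of arrays limits the precision.

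The genes and lists were chosen with earlier results of these data known. Full values are given for the called genes and the 12 of smallest p, the HIF subunits and Dnmt3a. From each pathway list up to 4 genes of smallest p are named, and up to 2 from each marker list with a median beyond 0.3. Called genes of a list beyond the 4 were named after their values were seen. Alternatives covered background, normalization, filter, choice of probe, dye and block terms, weights, threshold, each array, pair and slide; leaving out slide 3 was added after seeing the data.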

Additional observations from a re-analysis of the deposited data

Results flagged for a closer look

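In groups of 4 arrays of a pair, 1 array stood far from the other 3 for 4 of 76 combinations of gene and pair tested by Dixon's criterion, where chance gives about 1 in 20. Gpi1 had a log2 KO over WT ratio of 0.91 on replicate 1 of pair A, with the others between -0.28 and -0.09. Car9 had -1.15 on the same array, with the others between -0.05 and -0.02. In pair B, Eno2 had 0.38 on replicate 8, with the others between -0.02 and 0.02, and Bnip3 had 0.12 on replicate 5, with the others between -0.37 and -0.30. The Eno2 signal was near background.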

How the results depend on the processing

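Each array pairs KO with WT RNA within itself, so its ratio is already a paired value. Replicate numbers link no further groups, and pair entered the fit as a random block. The count of all genes changed was 1471, against 377 with median centring, 49 with arrays of a pair averaged first, 606 with a variance trend and robust fit, 400, 883, 831 and 972 without pair A, B, C or D, 885 without slide 3 (chosen after seeing the data), 2516 at a threshold of 0.1, and 784 to 1808 with 1 array left out. Within slides 1, 2 and 3, limma called 0, 1 and 0 genes, with 3115, 3087 and 3164 at an unadjusted p under 0.05; these fits hold 4 arrays each. Of the glycolysis genes 1 was called, against 2 with local backgrounds as deposited, the filter in both dyes, the mean of a gene's probes, independent arrays, red over green ratios, slide as block or array weights, and 4 at a threshold of 0.1. It was 0 with median centring, no dye term, pair means, the variance trend, without pair A, C or D and within each slide, and 0 to 4 with 1 array left out. Of the other hypoxia genes 1 was called, against 2 without pair B and 3 at a threshold of 0.1. It was 0 with median centring, pair means, array weights, the variance trend, without pair A, C or D, without slide 3 and within each slide, and 0 to 2 with 1 array left out. The cause of these changes was not tested. Over 36 alternatives, the threshold of 0.1 among them, Hk1 kept its sign and passed in 19 (ratio -1.18 to -0.24, adjusted p = 0.0148 to 0.716), and Ankrd37 kept its sign and passed in 17 (-0.97 to -0.10, adjusted p = 0.0194 to 0.911). Ldhb was above 0 in all 36 (0.49 to 1.90) and passed in 10. Both list medians moved by less than their SD over arrays (0.25 and 0.20), although that of the glycolysis genes was 0.07 within slide 2. The number of the 38 genes below 0 lay between 18 and 31, and Aldoc, Bnip3l, P4ha1, Ndrg1 and Tpi1 turned sign under a change of background or normalization. Hba-a1, which fell over the 12 arrays, stood at 0.11 within slide 2. Dim spots limit Eno2, Car12 and slide 3.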
